A study of Mus musculus with 4 samples.

Results

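The genes described here are the collagens: every gene whose symbol in the platform annotation has the form Col, a number, a and a number. The rule found 36 of the 12393 genes with a single annotated symbol, read by 58 of the array's 22690 probe sets. They were split by structure into 9 fibrillar collagens, 8 basement membrane collagens (type IV with the multiplexins Col15a1 and Col18a1) and 19 others. Of the 36, 18 had a mean signal at or above the median over all genes and were tested. Of these 18, 0 met the calling rule between the lines, against 7.99% of all genes tested, and 0 after PTHrP, against 0%. None of the 18 reached a 2-fold difference in any single contrast. Among all genes tested 3% did between the lines without ligand and 2.89% with PTHrP. For PTHrP against carrier or control, 0.145% did in the R150C line and 0.387% in the WT line.

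RNA came from CH10T1/2 cells, a fibroblast line from mouse embryos with the capacity to form cartilage, bone, fat and muscle, stably transfected with PTHR1, the receptor for PTH and PTHrP. One line carried the R150C variant of the receptor, found in enchondromas (benign cartilage tumours), and the other the wild-type receptor (WT). All cells were kept overnight without serum before PTHrP (1e-07 M) or carrier was added for 1 h. The title of the untreated WT sample names neither PTHrP nor carrier, and the sample is called control here. There was 1 array for each of the 4 groups (R150C with PTHrP, R150C with carrier, WT with PTHrP and WT control), each receptor was represented by 1 transfected line, and receptor and line cannot be told apart.

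Collagens are trimeric proteins whose chains wind into a triple helix, which requires glycine at regular steps along the chain. Fibrillar chains assemble into the cross-banded fibrils of bone, skin, tendon and cartilage, and type IV chains into the sheet-like network of basement membranes. Others sit on fibril surfaces, form beaded filaments, anchor epithelia or span the cell membrane. Fibroblasts are known mainly for types I, III, V and VI, whereas cartilage is built on types II, IX and XI, and type X marks the hypertrophic chondrocytes of the growth plate, the tissue in which PTHrP signalling is best known.

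Values are signal intensities on a linear scale. Because probe sets differ in how brightly they respond, the level of one gene is not set against that of another. Differences were taken between log2(signal + 16) values, with each array centred on the genes kept by the filter, so the change of a dim gene is understated. The brightest probe set stood for a gene. A gene was kept when its mean over the arrays reached the median over genes, a signal of 62.6 when turned back from the log scale. Of the 36 collagen genes, 18 were kept (7 fibrillar, 4 basement membrane, 7 others) and 18 fell below.

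Most mesenchymal markers, and few markers of other cell types, were above the filter. Of 8 mesenchymal markers 6 were above the filter, among them the intermediate filament gene Vim, which read 7884.8 and 8835.7 in R150C cells (PTHrP, carrier), against 10659.2 and 9830.7 in WT cells (PTHrP, control). Fap and Nt5e fell below it, at 22.6 and 11.4 or less. Markers of muscle and endothelium had no gene above the filter among 6 and 6. Epithelial markers had 1 of 7 (Krt8), macrophage markers 2 of 6 (Csf1r and Cd14), adipocyte markers 2 of 5 (Pparg and Fabp4) and osteoblast markers 1 of 5 (Sp7). The array's own RNA controls differed: the ratio of 3' to 5' signal for beta-actin was 2.31 and 2.13 in the R150C arrays (PTHrP, carrier), and 2.39 and 1.42 in the WT arrays (PTHrP, control). Its part in the differences below was not tested.

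**Figure D1:**
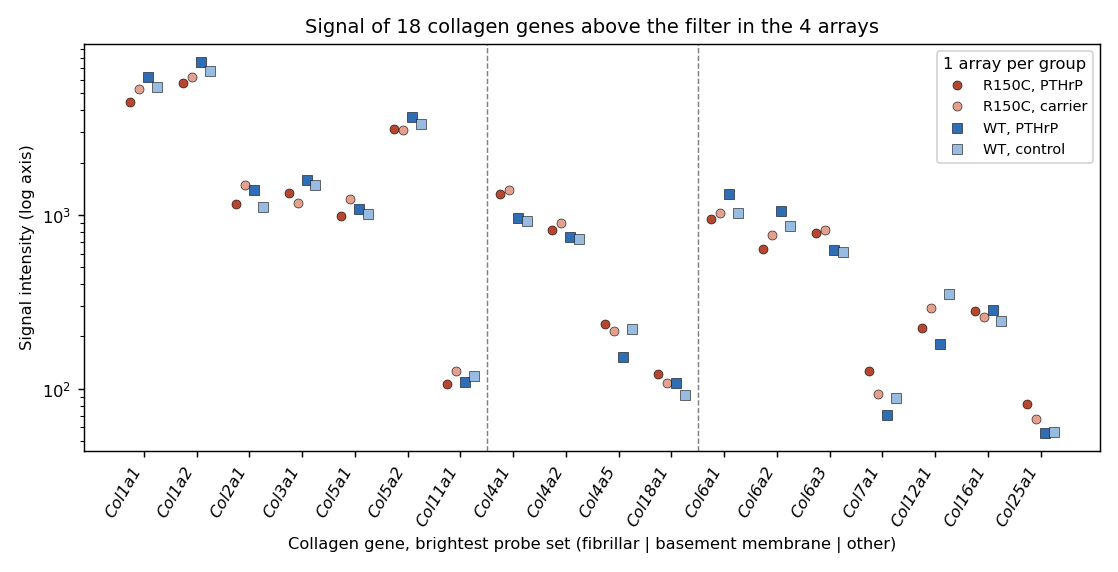
Signal intensity (log axis) of the 18 collagen genes above the filter, by their brightest probe set; each point is 1 array, with R150C arrays as circles and WT arrays as squares. Within each gene the 4 points lie close together, and the widest spread is that of Col12a1, from 182.0 to 351.6.

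Upstream stretches are shown for a pair of fibrillar chains whose R150C values lay below the WT values in both media. The stretch where the starts of the Col4a1 and Col4a2 genes overlap is shown because those neighbours lay the other way by their brightest probe sets. The sequences are RefSeq's, on GRCm38.p6, and 27 of the 36 collagen genes had a promoter window there. Capitals mark matches on either strand. The first motif searched was the CCAAT box, spelled CCAAT. The next was a common form of the TATA box, spelled TATAAA. The last was the GC box, spelled GGGCGG.
Col1a2, 250 bases before its start, chr6:4505368-4505617, plus strand: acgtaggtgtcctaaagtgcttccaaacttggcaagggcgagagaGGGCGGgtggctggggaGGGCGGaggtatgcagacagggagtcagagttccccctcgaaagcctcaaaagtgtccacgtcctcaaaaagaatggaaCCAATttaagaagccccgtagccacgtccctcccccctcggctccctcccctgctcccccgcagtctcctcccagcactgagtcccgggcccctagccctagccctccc
Col3a1, 250 bases before its start, chr1:45311288-45311537, plus strand: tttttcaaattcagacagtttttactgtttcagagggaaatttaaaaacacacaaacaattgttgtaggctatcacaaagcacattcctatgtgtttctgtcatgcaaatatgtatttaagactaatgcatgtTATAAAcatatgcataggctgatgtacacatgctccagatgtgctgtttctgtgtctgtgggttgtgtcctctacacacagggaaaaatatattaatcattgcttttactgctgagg
Col4a1-Col4a2, the 22 bases spanned by both starts, chr8:11312805-11312826, plus strand: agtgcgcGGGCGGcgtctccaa
Col4a1 reads on the minus strand from the right end of that stretch and Col4a2 on the plus strand from its left end. The pair stand head to head, and the 22 bases lie within both annotated transcripts, not upstream of either gene. In the 250 bases before the start, CCAAT was found in 12 of 27 collagen genes (44.4%) and in 37.5% of all 27025 genes with a window. The share with GGGCGG was 55.6% of collagens and 35.4% of all genes, and that with TATAAA 18.5% and 14.3%. These letter matches describe the windows, and binding to them was not tested.

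The comparison of the R150C line with the WT line asks which transcripts differ between cells carrying the enchondroma variant and cells carrying the normal receptor. Both media entered a single limma fit with terms for the receptor and for the ligand. Its p-values were adjusted by Benjamini-Hochberg over the 6197 kept genes, and a call needed an adjusted p under 0.05 in each of 4 scalings of the arrays. Over all kept genes 5.08% were called higher and 2.9% lower in R150C cells, 7.99% in all. Of the 18 kept collagens 0 were called, and 3 (Col4a1, Col6a2 and Col6a3) had an unadjusted limma p under 0.05 when centred on the kept genes, against 25.5% of all kept genes. With 1 residual degree of freedom for each gene, this fit takes its error from how far the 4 arrays depart from additivity, and nothing in it speaks for separate cultures.

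The chains of type I collagen, the main fibril of bone, skin and tendon, gave a high signal in every array. Col1a1 read 4440.1 and 5285.6 in R150C cells (PTHrP, carrier), against 6197.4 and 5431.6 in WT cells (PTHrP, control). Col1a2 read 5713.5 and 6231.5 in R150C cells, against 7532.6 and 6757.0 in WT cells in the same order. Both R150C arrays lay below both WT arrays in each gene, with the lowest value after PTHrP in the R150C line and the highest after PTHrP in the WT line. By limma the difference over both media was -0.29 for Col1a1 (95% interval -0.64 to 0.07, largest adjusted p over the scalings 0.775) and -0.28 for Col1a2 (-0.62 to 0.05, 0.862), so neither passed. After quantile normalization the differences were -0.08 for Col1a1 and -0.05 for Col1a2. The second Col1a1 probe set overlapped between the lines, at 1649.9 and 1706.6 in R150C cells and 1898.2 and 1572.4 in WT cells, and differed by -0.05 when fitted on its own.

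Col3a1 encodes type III collagen, which mixes with type I in the fibrils of pliable tissues. It read 1342.7 and 1168.7 in R150C cells (PTHrP, carrier), against 1579.8 and 1481.7 in WT cells (PTHrP, control). The lines did not overlap, and the difference of -0.31 (interval -0.64 to 0.02, limma's largest adjusted p 0.472) did not pass. Its other probe set, at 92.6 and 102.4 in R150C cells and 153.6 and 163.4 in WT cells, stood further apart. When each probe set was fitted on its own it differed by -0.63, with a limma adjusted p of 0.0214 when centred on the kept probe sets. The largest over the scalings was 0.0806, so it was not called. That was nearer to a call than the brightest Col4a1 probe set in the same fit (0.0779, largest 0.135).

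Type V collagen sits inside type I fibrils and limits their width. Its chain Col5a2 read 3123.0 and 3099.3 in R150C cells (PTHrP, carrier), against 3645.6 and 3314.5 in WT cells (PTHrP, control), a difference of -0.19 (interval -0.51 to 0.14) that became -0.07 after quantile normalization. The partner chain Col5a1 read 984.6 and 1232.0 in R150C cells, against 1085.3 and 1018.9 in WT cells, with overlapping lines and a difference of 0.04 (interval -0.31 to 0.39). The third chain, Col5a3, stayed below the filter, between 51.4 and 60.6 in the 4 arrays.

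The fibrillar collagens of cartilage were not alike in these cells. Col2a1, the chain of type II collagen, read 1153.9 and 1481.0 in R150C cells (PTHrP, carrier), against 1384.9 and 1105.9 in WT cells (PTHrP, control). The 2 lines overlapped, since R150C was higher by 0.38 without ligand and lower, at -0.28, with it; over both media the difference was 0.05 (interval -0.34 to 0.45). Col11a1, the type XI chain that nucleates cartilage fibrils, read 106.0 and 126.0 in R150C cells and 109.1 and 118.5 in WT cells, a difference of -0.01 (interval -0.33 to 0.32). Its partner Col11a2 stayed below the filter, from 28.7 to 46.2.

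Of the other collagens of cartilage, none came above the filter. By their brightest probe sets Col9a1, Col9a2 and Col9a3, the chains of the type IX collagen that coats type II fibrils, read at most 36.2, 1.8 and 9.2 in any array. Col10a1 read 4.3 and 4.9 in R150C cells (PTHrP, carrier) and 10.9 and 11.9 in WT cells (PTHrP, control), low signals for which no test was made. Of 10 further cartilage markers 1 was above the filter, the regulator Sox9, which averaged 156.2 over the 2 R150C arrays and 160.1 over the 2 WT arrays. The proteoglycan gene Acan read 41.7 and 36.6 in R150C cells and 19.5 and 37.8 in WT cells. Col2a1 gave a signal well above the filter while 9 of 10 cartilage markers did not reach it; it has 1 probe set, whose specificity was not checked, so these values may not be type II collagen transcript alone.

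Type IV collagen, the network of basement membranes, held the value nearest to a call among the brightest probe sets. Col4a1 read 1321.3 and 1387.1 in R150C cells (PTHrP, carrier), against 960.5 and 924.9 in WT cells (PTHrP, control). The lines did not overlap, and within each line the arrays with and without ligand read close to each other. The difference was 0.49 (SE 0.15, interval 0.16 to 0.82), with a limma adjusted p of 0.0645 when centred on the kept genes and 0.0624 after quantile normalization. It passed without centring (adjusted p 0.0325) and when centred on all probe sets (0.0339). The second Col4a1 probe set did not repeat it: it read 665.9 and 675.9 in R150C cells and 693.7 and 699.5 in WT cells, a difference of -0.06 when fitted on its own. The mean of both probe sets gave 0.24 (limma's largest adjusted p over the scalings 0.449).

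Col4a2, which joins Col4a1 in the common type IV trimer, read 817.2 and 904.2 in R150C cells (PTHrP, carrier), against 750.5 and 731.6 in WT cells (PTHrP, control). It lay in the same direction as the brighter Col4a1 probe set, by 0.18 (interval -0.15 to 0.51), and did not pass. Col4a5, a chain of the trimers of kidney and other specialised membranes, read 236.5 and 216.3 in R150C cells, against 153.2 and 221.0 in WT cells. Its difference of 0.25 (interval -0.14 to 0.63) rested on the single low value in WT cells with PTHrP, and its second probe set gave -0.15. Col18a1, a multiplexin whose end fragment is endostatin, read 122.1 and 108.6 in R150C cells and 108.7 and 91.9 in WT cells, a difference of 0.15 (interval -0.17 to 0.48).

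**Figure D2:**
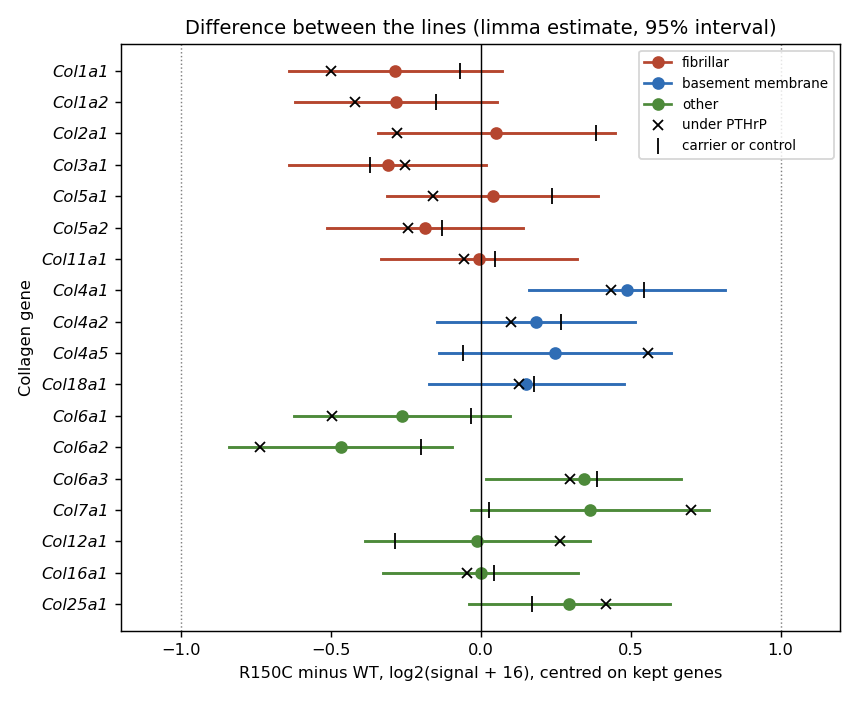
R150C minus WT difference of the 18 kept collagen genes on the log2(signal + 16) scale. Circles are limma estimates over both media with 95% intervals, crosses the difference under PTHrP and upright ticks that in carrier or control; dotted lines mark 2-fold. All 18 intervals lie inside the dotted lines, as do 5755 of the 6197 over all kept genes. The intervals of Col4a1, Col6a2 and Col6a3 leave out 0.

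The chains of type VI collagen, which forms beaded filaments around cells, went different ways. Col6a1 read 942.6 and 1022.3 in R150C cells (PTHrP, carrier), against 1316.3 and 1023.8 in WT cells (PTHrP, control), a difference of -0.26 (interval -0.62 to 0.10). Col6a2 read 636.4 and 769.9 in R150C cells, against 1055.5 and 866.3 in WT cells, the furthest below WT of the 18 genes at -0.47 (interval -0.84 to -0.10, limma's largest adjusted p 0.163). Col6a3, the long chain of the trimer, lay above WT instead: 791.0 and 824.0 in R150C cells, against 630.6 and 612.2 in WT cells, a difference of 0.34 (interval 0.02 to 0.67, largest adjusted p 0.181). None of the 3 passed. In each both R150C arrays lay on one side of both WT arrays on the centred scale, in Col6a1 by -0.03 without ligand. Among all kept genes both R150C arrays lay above in 23% and below in 33.2%.

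Col7a1, the chain of the anchoring fibrils of skin, read 127.1 and 93.4 in R150C cells (PTHrP, carrier), against 70.8 and 89.1 in WT cells (PTHrP, control). Its difference of 0.36 (interval -0.03 to 0.76) came almost wholly from the arrays with PTHrP, 0.70 there and 0.03 without. Col25a1, a membrane-spanning collagen known from neurons, read 81.5 and 67.5 in R150C cells and 55.9 and 56.6 in WT cells, a difference of 0.29 (interval -0.04 to 0.63). Both WT values are under the filter's 62.6, so that it was kept through the R150C arrays alone and its direction is no result. The fibril-associated Col16a1 did not separate the lines: 280.6 and 260.4 in R150C cells, against 285.9 and 246.2 in WT cells, with an interval from -0.33 to 0.32.

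Counted by class and by brightest probe sets, all 7 kept fibrillar collagens lay below WT in R150C cells under PTHrP, with a median of -0.25, while all 4 kept basement membrane collagens lay above, with a median of 0.28. Of the 7 other kept collagens 4 lay above and 3 below, with a median of 0.26. Among those 4 is Col25a1, at 0.42, which passed the filter through its R150C values alone, so that this count and median lean on it. The counts do not carry over to the further probe sets of the same genes. Of 7 further fibrillar probe sets above the filter 4 lay above WT under PTHrP (2 of Col5a1, at 0.23 and 0.07, and 1 each of Col5a2, at 0.18, and Col11a1, at 0.41), and of 3 further basement membrane probe sets 1 did. By brightest probe sets the fibrillar and basement membrane counts were the same under each of the 4 scalings, with medians from -0.26 to -0.13 and from 0.27 to 0.30. Without ligand the classes were less clearly placed: 3 fibrillar genes lay above and 4 below (median -0.07), and the median turned to 0.05 and 0.02 when centred on all probe sets and after quantile normalization. The basement membrane median there was 0.22, with 3 of 4 above. Over all kept genes the medians were -0.07 with PTHrP and -0.04 without, with 2628 and 2794 of 6197 genes above WT. Each contrast is 1 array against 1 array with no replicate check, and no test was made of the difference between the classes.

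On the centred scale both R150C arrays lay above both WT arrays in 5 kept collagens and below them in 6. Among all kept genes these shares were 23% and 33.2%, close to those of the collagens. Without Col25a1, which passed the filter through its R150C values alone, 4 of 17 lay above and 6 below. No kept collagen differed 2-fold between the lines, against 3% of all kept genes without ligand and 2.89% with PTHrP. At 1.5-fold, 0 of 18 collagens differed without ligand and 2 of 18 (Col6a2 and Col7a1) with PTHrP, against 11.6% and 11.3% of all kept genes. At a lower level, a log2 difference of 0.3, 4 of 18 collagens differed without ligand and 8 of 18 with PTHrP, against 36.8% and 39.9% of all kept genes. Those 8 include Col25a1, at 0.42. The levels of 1.5-fold and 0.3 were both chosen after values had been seen. The median size of the limma difference, without its sign, was 0.26 for the collagens and 0.20 for all kept genes. All 18 intervals lay inside 2-fold in both directions, as did 5755 of the 6197 over all kept genes. Inside 1.5-fold lay 8 of the 18, against 3630 of the 6197.

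**Figure D3:**
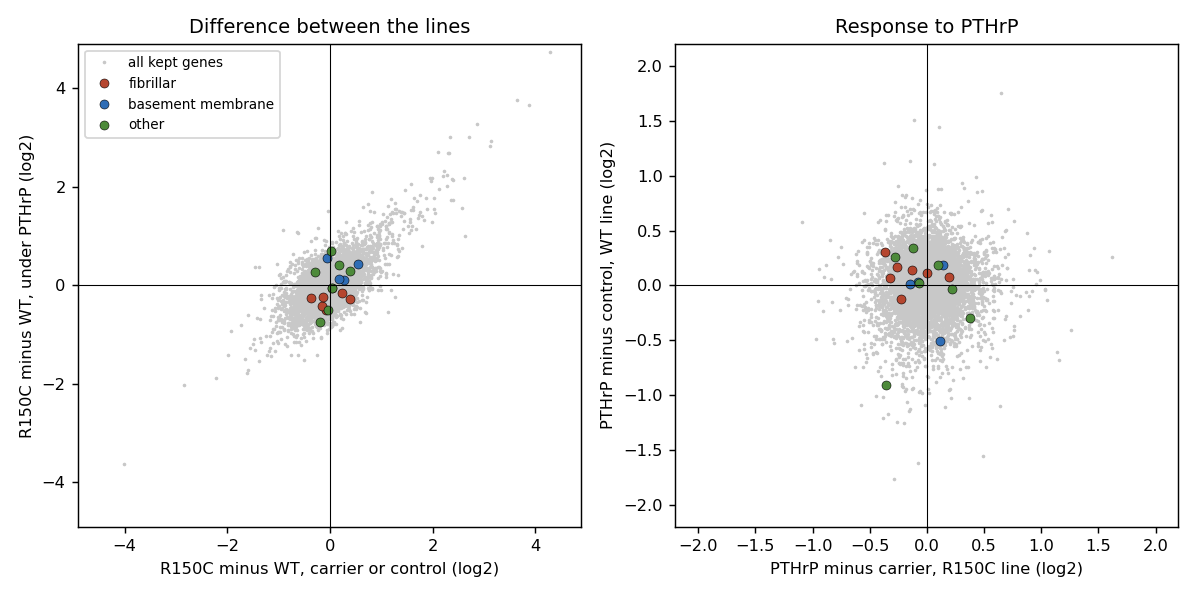
Left, R150C minus WT in carrier or control (x) and under PTHrP (y); right, PTHrP minus carrier in the R150C line (x) and PTHrP minus control in the WT line (y), all in log2(signal + 16) after centring. Grey points are all 6197 kept genes and coloured points the 18 kept collagens, which lie within 2-fold on every axis.

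Where several probe sets of a collagen passed the filter of a fit on probe sets, they could be set against each other. That was so for 10 genes, and in 7 of them the probe sets gave the difference between the lines 1 sign. The exceptions were Col4a1 (from -0.06 to 0.51), Col4a5 (from -0.15 to 0.26) and Col5a2 (from -0.17 to 0.27). Among the 7, the Col1a2 probe sets stood at -0.28 and -0.27, those of Col6a2 at -0.45 and -0.26 and those of Col3a1 at -0.63 and -0.29. The sizes differed more in Col1a1 (-0.27 and -0.05), Col5a1 (from 0.06 to 0.36), Col11a1 (0.01 and 0.22) and Col18a1 (0.02 and 0.17). Of the 30 collagen probe sets in that fit 0 were called.

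**Figure D4:**
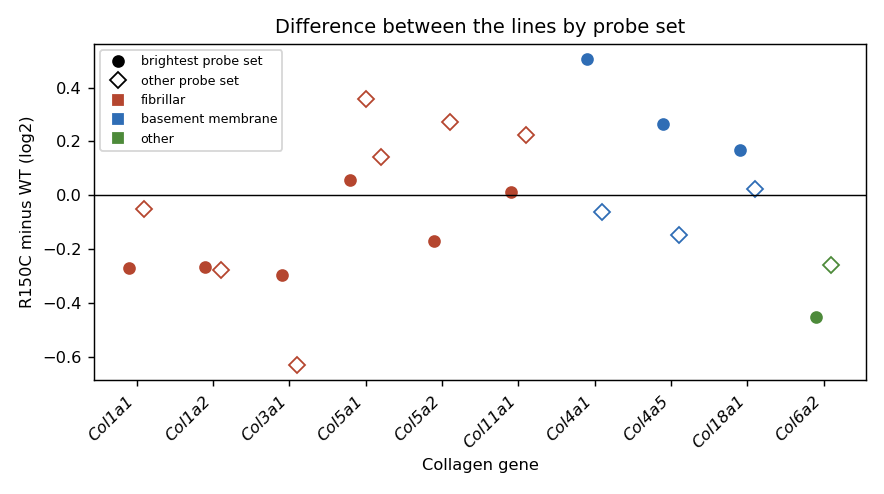
R150C minus WT difference (log2, limma estimate of the fit on probe sets) for the 10 collagen genes with several probe sets above the filter. Filled circles are the brightest probe set and open diamonds the others; those of Col4a1, Col4a5 and Col5a2 lie on both sides of 0.

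The PTHrP comparison asks what 1 h of ligand does. limma called 0% of the kept genes in the additive fit under the 4 scalings together, and 0 of the 18 collagens under any one of them. Centred on the kept genes, 1 collagen and 5.57% of all kept genes had an unadjusted limma p under 0.05. At 2-fold no kept collagen differed in either line, against 0.145% of kept genes in the R150C line and 0.387% in the WT line. At 1.5-fold, 0 of 18 collagens differed in R150C cells and 1 of 18 (Col12a1) in WT cells, against 1.84% and 3.73% of kept genes. At a log2 difference of 0.3 there were 4 of 18 in each line, against 15.7% of kept genes in R150C cells and 23.8% in WT cells.

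Among the kept collagens the widest response was that of Col12a1, a fibril-associated chain that ties fibrils to their surroundings. It read 225.2 with PTHrP and 291.8 with carrier in R150C cells, and 182.0 with PTHrP and 351.6 in the control of WT cells. The value with ligand was the lower in both lines, by -0.36 and -0.91. Fitted together the response was -0.64 (interval -1.01 to -0.26, limma's unadjusted p 0.00337), with an adjusted p of 0.564 when centred on the kept genes and 0.874 at most over the scalings, so it did not pass. Its receptor difference was -0.01 (interval -0.39 to 0.36), and it has 1 probe set.

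The responses of most other collagens were smaller and did not repeat between the lines. Of the 18 kept genes 12 had opposite signs in the R150C and WT lines, against 48.9% of all kept genes. The fibrillar median was -0.23 in R150C cells, with 2 genes above and 5 below carrier, and 0.12 in WT cells, with 6 above and 1 below control. The WT median moved to 0.30 when centred on all probe sets and turned to -0.02 after quantile normalization, so that its direction rests on the scaling. The basement membrane medians were 0.02 in R150C cells and 0.03 in WT cells, where Col4a5 differed by -0.51. By their brightest probe sets Col16a1 and Col18a1 were above carrier or control in both lines, by 0.09 and 0.18 for Col16a1 and by 0.14 and 0.19 for Col18a1. The second Col18a1 probe set went the other way in both lines, by -0.49 in R150C cells and -0.25 in WT cells.

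The 18 collagens below the filter read between 1.2 and 60.6 in all arrays by their brightest probe sets. Besides those already named they were Col8a1 (42.9 to 52.1), a short-chain collagen of the cornea and vessels, and Col4a3, Col4a4 and Col4a6 (1.7 to 33.1 together), the restricted chains of type IV. The fibril-associated Col14a1, Col19a1, Col20a1 and Col22a1 read from 1.2 to 34.7. Col13a1 and Col17a1, which span the membrane, and Col26a1 read from 1.6 to 20.4. Col15a1, a multiplexin of basement membrane zones, read 22.3 and 10.1 in R150C cells (PTHrP, carrier), against 36.4 and 37.4 in WT cells (PTHrP, control), a difference of -1.06 without ligand and -0.47 with it. Col22a1 read 3.0 and 14.0 in R150C cells and 1.2 and 22.2 in WT cells, the sole collagen with a single PTHrP contrast past 2-fold (-1.17, WT line). None differed 2-fold in the same direction in both media, and signals this low were not tested.

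The genes that make, process and bind collagen were listed apart from the collagens, 81 in 5 lists, of which 68 had a named probe set and 48 were kept. Over these lists limma called 7 of 48 genes higher and 0 lower in R150C cells, against 5.08% higher and 2.9% lower of all kept genes, and 0 after PTHrP. Their median difference over both media was 0.01, against -0.06 for all kept genes and 0.02 for the kept collagens. The calls depend on the filter: without one 0 of the lists' genes were called, and with one at the 25th percentile 3. The mean of a gene's probe sets in place of the brightest could alter the values of 3 of the 7: Lamc1 (limma's largest adjusted p 0.114) and Ddr1 (0.0636, over 8 probe sets) were no longer called, and Cd44 was (0.0139). The other 4 have 1 probe set.

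Of 17 kept genes for hydroxylation, folding and secretion, 1 was called higher, near the 5.08% of all kept genes. Creb3l1, a transcription factor of the endoplasmic reticulum known to drive type I collagen genes in bone, read 378.7 and 424.0 in R150C cells (PTHrP, carrier), against 234.9 and 211.9 in WT cells (PTHrP, control), higher by 0.78 (SE 0.15, limma's largest adjusted p 0.0179). Col1a1 and Col1a2 themselves did not pass, as given above. The collagen chaperone gene Serpinh1 differed by -0.03 and P3h4, of the prolyl 3-hydroxylase family, by 0.02. P4ha1 and P4ha2, the catalytic chains of prolyl 4-hydroxylase, stood at 0.19 and -0.03.

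Of 7 kept genes for trimming and cross-linking, 2 were called higher, beside 5.08% of all kept genes. Tll1, a protease of the BMP1 family that removes the C-terminal propeptide, read 182.1 and 165.3 in R150C cells (PTHrP, carrier), against 65.7 and 87.0 in WT cells (PTHrP, control), higher by 1.02 (SE 0.16, limma's largest adjusted p 0.00402). Loxl3, a lysyl oxidase that cross-links collagen and elastin, read 644.2 and 652.7 in R150C cells, against 361.5 and 319.5 in WT cells, higher by 0.87 (SE 0.15, largest adjusted p 0.00806). Their relatives did not pass: Bmp1 differed by 0.17, Lox by -0.13, Loxl1 by -0.09 and Loxl4 by -0.02.

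Of 15 kept partners in fibrils and basement membranes, 2 were called higher, again beside 5.08% of all kept genes. Tnc, a matrix glycoprotein of wounds and developing tendon, read 907.8 and 956.2 in R150C cells (PTHrP, carrier), against 603.7 and 498.7 in WT cells (PTHrP, control), higher by 0.72 (limma's largest adjusted p 0.0205). Lamc1, the gamma chain of most laminins, read 355.0 and 410.6 in R150C cells, against 215.2 and 241.3 in WT cells, higher by 0.68 (largest adjusted p 0.0239). Other genes of the basement membrane went both ways without passing. Lamb1 stood at 0.54 (limma's largest adjusted p 0.0743), Nid1 at 0.43 (0.0999), Nid2 at -0.30 and Hspg2 at 0.06. The laminin chains Lama4, Lama5 and Lamb2 stood at -0.20, 0.10 and 0.08. Sparc, a further gene of this list, lay below WT at -0.43 (limma's largest adjusted p 0.315). Fibronectin (Fn1) and periostin (Postn) differed by 0.04 and -0.02.

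Of 5 kept receptor genes 2 were called higher, with the same 5.08% over all kept genes. Ddr1, a receptor tyrosine kinase for collagen, read 343.6 and 330.8 in R150C cells (PTHrP, carrier), against 180.3 and 129.8 in WT cells (PTHrP, control), higher by 1.04 (limma's largest adjusted p 0.00602). Cd44, known first for binding hyaluronan and also collagen, read 944.5 and 945.8 in R150C cells, against 385.1 and 452.3 in WT cells, higher by 1.12 (largest adjusted p 0.00234). The related Ddr2, which is typical of mesenchymal cells, stood at -0.09 without passing, Mrc2, which takes up collagen for breakdown, at 0.02 and the integrin chain Itgb1 at 0.04. Of 4 kept degradation genes 0 were called in either direction, against 7.99% of all kept genes, with the membrane collagenase gene Mmp14 at 0.01 and the peptidase gene Prep at -0.02. The collagenase genes Mmp8 and Mmp13 were below the filter, at 37.9 or less.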

How the data were processed

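The deposited intensities of the probe sets came from Affymetrix Expression Console, as the submitters' processing notes name it; its version and algorithm, and any genome build, are not stated in those notes. They are scaled by the authors: the mean after trimming 2% at each end was 150.1 in every array. Of 22690 probe sets 64 controls were left out. Symbols came from the platform annotation, updated by Entrez identifier (RefSeq, GRCm38.p6) for 20351 of 20380 probe sets with 1 symbol; 691 had several and 1555 none.

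Signals were taken as log2(signal + 16), the brightest probe set stood for a gene, genes at or above the median (6197 of 12393) were kept, and each array was centred on their median. limma 3.58.1 in R 4.3.3 fitted receptor and treatment, with eBayes and Benjamini-Hochberg adjustment at 0.05. A call had to hold under 4 scalings: centred on the kept genes, not centred, centred on all probe sets, and quantile normalized. limma's standard error of the receptor term ran from 0.147 to 0.345 under the first; under the third it was 0.187 for every gene. Under the third the median of the kept genes after PTHrP in the WT line was 0.22, against 0.03 under the first. With 1 array per group nothing says what separate cultures would add, single contrasts have no test, and 4 arrays limit the precision. On simulated data for the R150C over WT comparison (6197 genes) limma called 34 of 67 genes changed 1.5-fold, all 67 changed 2-fold and 8 of 5997 unchanged ones. The variation between separate cultures is not known from these arrays, so these counts give no error rate for the calls on the real data.

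Collagens with a mean above the filter, those past 2-fold below it, and the called members of the other lists with up to 2 of the smallest differences per list were named by rule; other names were chosen after their values were seen. The members, the lists, the scalings and the calling rule were chosen with earlier results of these data known. Counts at 1.5-fold and at a log2 difference of 0.3 were added to those at 2-fold after values had been seen.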

Additional observations from a re-analysis of the deposited data

Results flagged for a closer look

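In 3 of the 18 kept collagens the response to PTHrP pointed opposite ways in the lines and exceeded 0.25 in each line. That value is the SD (log2) of differences between 2 arrays, as the kept genes' departures from additivity give it. This minimum was added after values had been seen; without it 12 of the 18 kept collagens had opposite signs. Col2a1 differed by -0.36 in R150C cells and 0.30 in WT cells, a difference between the responses of -0.66. Col6a2 differed by -0.28 and 0.26, giving -0.54, and Col7a1 by 0.38 and -0.30, giving 0.67. Among all kept genes 3.73% met the same condition. The second Col6a2 probe set did not meet it. With the arrays centred on the kept probe sets, it was higher with PTHrP in both lines, by 0.32 in R150C cells and 0.34 in WT cells. With 1 array per group these differences were not tested.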

How the results depend on the processing

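No paired analysis was possible because each group has 1 array and the labels give no replicate numbers. Leaving out an array was not possible either, since it leaves the fit no residual degree of freedom. The count of collagens called higher in R150C cells was 0 and became 1, Col4a1, without centring, when centred on all probe sets, with a pseudocount of 64 and with an intensity trend in eBayes, at 0.52, 0.55, 0.47 and 0.49; its limma adjusted p ran from 0.0284 to 0.449 over the alternatives. No collagen was called lower, or called after PTHrP, under any alternative tried. Over all kept genes 315 were called higher and 180 lower. Without a filter these counts were 47 and 9, 144 and 40 for a filter set at the 75th percentile, 167 and 54 for one at the 25th percentile, and 319 were lower without centring. The other lists, with 7 called higher, had 0 without a filter and 3 under the 25th percentile filter. After PTHrP 1 gene was called higher without centring, and 22 higher and 3 lower when centred on all probe sets, against 0. The medians over the kept collagens are small and their signs were not stable: R150C over WT, 0.04 without ligand, was -0.06 with the 75th percentile filter; with PTHrP, -0.05, it was 0.05 with the mean of all probe sets; and PTHrP over control in WT, 0.07, ran from -0.01 after quantile normalization to 0.26 when centred on all probe sets. The causes were not tested. Using the scaling centred on the kept genes alone as the calling rule was chosen after seeing the data.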
